A study of Mus musculus with 6 samples.

Results

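A set of 10 transcription factors that set or mark the cell lineages of the mammary epithelium was followed in mouse mammary tumors. They are the luminal factors Foxa1, Gata3, Esr1, Pgr and Elf5, the basal factors Trp63, Snai2, Sox9 and Tcf7l1, and the differentiation factor Klf4. All 10 genes were measured, of 12393 genes in all, by 16 of the 20380 probe sets that carry 1 gene symbol. A probe set is a group of array oligonucleotides summarised as 1 value. Of the members, 5 had 1 probe set, 4 had 2 and Trp63 had 3, and a gene is represented by its probe set of highest mean unless another is named. The members were selected on the drug-minus-vehicle differences of these same arrays, known from an earlier reading of the data, so those differences are given as a description and without a test.

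The tumors came from mice given vehicle (3 samples) or a drug combination (3 samples) for 21 days. Its components were the Aurora kinase inhibitor VX680, the alkylphosphocholine miltefosine, and WP1066, which blocks JAK2 and STAT3 signalling. The labels describe both groups as mammary tumors and give no strain, genotype, age or tumor model, and they do not state whether samples of one group are separate animals, so the spread between them may be technical. With 1 Affymetrix array per sample, precision is limited by the number of arrays. Values are the authors' log2 expression values, on which a difference of 1 is a change by a factor of 2.

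The mammary epithelium has an inner luminal layer, which holds hormone-sensing cells and milk-secreting alveolar cells, and an outer basal or myoepithelial layer. FOXA1 is a pioneer factor that opens chromatin for the estrogen receptor, and GATA3 maintains luminal fate, while ELF5 drives the alveolar branch. The p63 protein encoded by Trp63 maintains basal cells, and SNAI2 and SOX9 are linked to basal and stem-like states. TCF7L1 is a TCF/LEF factor that mostly represses Wnt target genes, and KLF4 promotes the terminal differentiation of epithelia.

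Among the members, Foxa1 and Tcf7l1 had lower values on every drug array than on every vehicle array, and Klf4, Trp63, Snai2, Elf5 and Pgr had higher ones, by very unequal amounts. Foxa1 had a 2.29-fold lower mean and Trp63 a 1.87-fold higher mean, whereas Pgr and Elf5 differed by 1.08-fold and 1.11-fold. Gata3, Esr1 and Sox9 overlapped between the groups. The groups of 3 did not overlap for 7 of the 10 members, and for 17.1% of all genes (7.73% higher and 9.37% lower with drug). Since the members were picked with this contrast in view, nothing is read from that share. With limma and Benjamini-Hochberg adjustment, 0 of 12393 genes passed an adjusted p of 0.05, the members included. The smallest adjusted p was 0.231, and 1275 genes (10.3%) had an unadjusted p under 0.05, 5.37% of all genes with a higher and 4.91% with a lower mean.

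Windows of 250 bases directly before a listed gene start are shown for Foxa1, Tcf7l1 and Klf4. Of the members with a promoter in the RefSeq table (GRCm38.p6), these had the groups that lay farthest apart on the arrays. For Tcf7l1 and Klf4 the start is the outer end of the annotated gene, and for Foxa1 it is not. The table held windows for 7 of the 10 members. Capitals mark every match, on either strand, to the forkhead words TGTTTAC and TGTTTGC, the GATA word AGATAA, the E-box CAGGTG bound by SNAI2, the TCF word ATCAAAG, the KLF word CCACCC and the SOX word ACAATG.
Foxa1, chr12:57546112-57546361, minus strand: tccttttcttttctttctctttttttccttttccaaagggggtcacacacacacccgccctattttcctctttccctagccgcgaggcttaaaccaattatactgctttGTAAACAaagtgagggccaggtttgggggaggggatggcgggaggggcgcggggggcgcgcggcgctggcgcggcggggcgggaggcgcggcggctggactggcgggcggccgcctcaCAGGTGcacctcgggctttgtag
Tcf7l1, chr6:72789046-72789295, minus strand: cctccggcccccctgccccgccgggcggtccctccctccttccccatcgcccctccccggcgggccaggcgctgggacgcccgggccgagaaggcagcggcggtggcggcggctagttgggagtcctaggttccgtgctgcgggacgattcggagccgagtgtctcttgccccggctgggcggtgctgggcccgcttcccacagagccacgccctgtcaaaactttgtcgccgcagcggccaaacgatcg
Klf4, chr4:55532476-55532725, minus strand: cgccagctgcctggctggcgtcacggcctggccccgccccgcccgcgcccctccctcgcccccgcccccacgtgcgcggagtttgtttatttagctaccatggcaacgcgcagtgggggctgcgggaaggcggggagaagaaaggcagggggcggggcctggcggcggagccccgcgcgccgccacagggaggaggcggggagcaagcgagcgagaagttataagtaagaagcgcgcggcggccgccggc
The Foxa1 window held the forkhead word TGTTTAC on the opposite strand, from 141 to 135 bases before the start, and the E-box on the gene's strand, from 23 to 18 bases before it, and these matches do not overlap. The forkhead word occurs in 3.17% and the E-box in 17.2% of the 32851 windows of this length in the table. None of the 7 words occurs in the Klf4 or Tcf7l1 window, and the most frequent of them, CCACCC, occurs in 28.1% of all windows. The windows are rich in G and C, with 62.0% for Foxa1, 73.6% for Tcf7l1 and 74.0% for Klf4, against a median of 52.4%. These letter matches describe the sequence and show no binding.

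**Figure D1:**
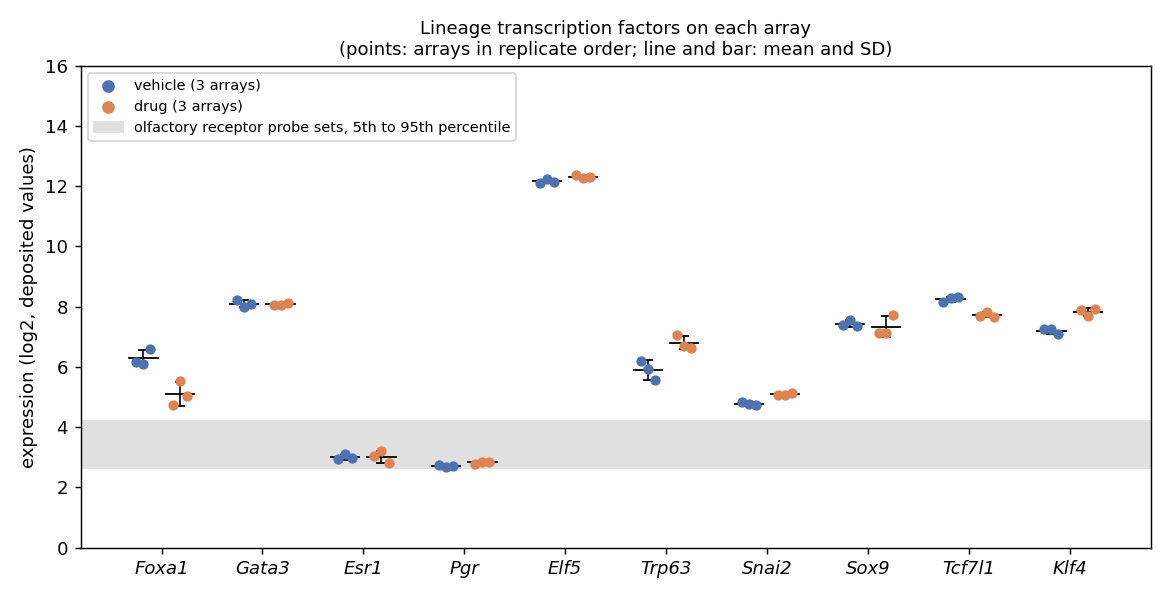
Expression of the main probe set of each factor (vertical axis, log2 deposited values) on the 3 vehicle and 3 drug arrays, with group means (lines), SD (bars) and, in grey, the range from the 5th to the 95th percentile of olfactory receptor probe sets. Foxa1 and Tcf7l1 sit lower on the drug arrays, Trp63, Klf4 and Snai2 higher, and Esr1 and Pgr lie within the grey range in both groups.

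Foxa1 showed the largest difference among the luminal factors. Its log2 values were 6.18, 6.11 and 6.60 on the vehicle arrays and 4.74, 5.52 and 5.04 on the drug arrays. All drug values were lower, with a gap of 0.59 between the lowest vehicle and the highest drug value, and the drug arrays were spread more widely (0.78) than the vehicle arrays (0.49). The means were 6.30 ± 0.26 and 5.10 ± 0.39 (SD, n = 3 each), a log2 difference of -1.20 ± 0.22 (SE). Of the 12393 genes, 25 had a more negative difference. The difference was -0.86 without both arrays rich in skeletal muscle transcripts (vehicle replicate 3 and drug replicate 1), which held the most extreme Foxa1 values of their groups. With a skeletal muscle score as covariate the difference was -1.24. Relative to the mean of 13 pan-epithelial genes on the same array it was -1.27, or -1.20 with Dsp left out of that mean.

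Gata3 values overlapped between the groups. It read 8.21, 8.0 and 8.09 in vehicle and 8.06, 8.06 and 8.13 with drug, and the drug values lay inside the vehicle range. Its difference was -0.02 ± 0.07 (SE, n = 3 per group). GATA3 is also a factor of T helper cells, and of 9 T cell marker genes 7 had lower means in drug-treated tumors. The summed linear level of those 9 genes was 302 to 427 in vehicle and 319 to 340 in drug-treated tumors. The part of T cells in the Gata3 value was not tested.

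The hormone receptors Esr1 and Pgr were at the bottom of the scale. Esr1, the estrogen receptor alpha, read 2.93, 3.10 and 2.99 in vehicle and 3.04, 3.21 and 2.81 with drug, and the groups overlapped. Pgr, the progesterone receptor, read 2.74, 2.69 and 2.72 in vehicle and 2.77, 2.85 and 2.86 with drug, where the groups were parted by 0.03. Olfactory receptor genes, which epithelium of the mammary gland is not known to use, served as a reference for low values, chosen after the data were seen. The means of their 33 probe sets had a median of 3.54 and a highest value of 4.61. Esr1 lay above 8 and Pgr above 4 of these 33, so neither value can be told from background, and the Pgr difference of 0.11 ± 0.05 (SE, n = 3 per group) was at that level. The array could not show a change of either receptor below this level.

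Elf5 was well above the low reference in both of its probe sets. The main one read 12.11, 12.23 and 12.14 in vehicle and 12.36, 12.26 and 12.30 with drug. All drug values were higher, by a gap of 0.03, and the difference was 0.14 ± 0.06 (SE, n = 3 per group). The other Elf5 probe set read 7.55, 7.76 and 7.77 in vehicle and 8.26, 7.91 and 7.94 with drug, again with no overlap, and differed by 0.34 ± 0.11. Against the pan-epithelial mean the main probe set differed by 0.07, and by 0.14 when Dsp, the list's most different gene, was left out of that mean.

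The 3 probe sets of Trp63 gave different pictures. The main one, 1418158_at, read 6.20, 5.94 and 5.55 in vehicle and 7.05, 6.71 and 6.64 with drug. All drug values lay above all vehicle values, with a gap of 0.43. The means were 5.90 ± 0.33 and 6.80 ± 0.22 (SD, n = 3 each), a difference of 0.90 ± 0.19 (SE), and 46 of 12393 genes had a larger positive difference. Probe set 1451876_a_at read 3.31, 3.31 and 3.32 in vehicle and 3.30, 3.31 and 3.56 with drug, so that only drug replicate 3 stood above the rest. Probe set 1452027_a_at read 3.13, 3.26 and 3.15 in vehicle and 3.34, 2.97 and 3.04 with drug, with overlapping groups. The differences of these probe sets were 0.07 ± 0.08 and -0.06 ± 0.10 (SE, n = 3 per group). Their means over the arrays lay above 11 and 8 of the 33 olfactory receptor probe sets, and that of the main probe set above all 33. The disagreement is thus between 1 probe set well above the low reference and a pair within it. Which p63 transcripts each probe set reads was not analysed here.

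The Trp63 difference depended on how it was summarised. It was 0.30 as the mean of the 3 probe sets and 0.60 without both muscle-rich arrays, and from 0.72 to 1.05 when any 1 array was left out. Vehicle replicate 3 had the lowest Trp63 value of its group and the highest mean log2 level of 14 skeletal muscle genes, 10.27. Drug replicate 1 had the highest Trp63 value of its group, and also the highest muscle level of its group, 9.17. With a skeletal muscle score as covariate the difference was 0.92. All 14 muscle genes had lower means in drug-treated tumors, and their summed linear level ranged from 2075 to 24864 in vehicle and from 757 to 12911 with drug.

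Snai2, a zinc finger repressor of epithelial genes, was low but parted between the groups. It read 4.83, 4.78 and 4.72 in vehicle and 5.08, 5.06 and 5.14 with drug, above the highest olfactory receptor mean (4.61) on every array. The gap of 0.22 exceeded the spread within vehicle (0.11) and within drug (0.08), and the difference was 0.31 ± 0.06 (SE, n = 3 per group). Fibroblasts also express Snai2, and 10 of 12 fibroblast genes had higher means with drug. Their summed level was 11073 to 21647 in vehicle and 16936 to 19234 with drug, and the array with the highest fibroblast mean of its group was replicate 3 in both groups, with the lowest Snai2 value in vehicle and the highest with drug. The part of fibroblasts in the Snai2 value was not tested. In whole tumors, fewer cells of a type and less RNA per cell cannot be told apart, which holds for every member.

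Sox9, an SRY-box factor of progenitor cells, overlapped between the groups in both probe sets. The main one read 7.38, 7.57 and 7.36 in vehicle and 7.12, 7.13 and 7.73 with drug. Drug replicates 1 and 2 were below all vehicle arrays and drug replicate 3 above them, so the mean difference of -0.11 ± 0.18 (SE, n = 3 per group) describes no array of the group. Without drug replicate 3 it was -0.31. The other probe set differed by -0.16 ± 0.17, and there too drug replicate 3 had the highest drug value, 6.75.

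Tcf7l1 had lower values with drug in both of its probe sets. The main probe set read 8.15, 8.28 and 8.31 in vehicle and 7.69, 7.82 and 7.67 with drug. The gap of 0.33 exceeded the spread within vehicle (0.16) and within drug (0.15). The means were 8.25 ± 0.08 and 7.73 ± 0.08 (SD, n = 3 each), a difference of -0.52 ± 0.07 (SE). The other probe set, 1436207_at, differed by -0.22 ± 0.07, with all drug values below all vehicle values by 0.05. The probe sets therefore had the same sign and unequal size, and their mean differed by -0.37.

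Klf4 had higher values with drug in both of its probe sets. The main one read 7.27, 7.25 and 7.09 in vehicle and 7.89, 7.68 and 7.93 with drug. The other read 6.82, 6.82 and 6.80 in vehicle and 7.44, 7.17 and 7.51 with drug. In both, every drug array was above every vehicle array and drug replicate 2 was the lowest of its group. The differences were 0.63 ± 0.09 and 0.56 ± 0.09 (SE, n = 3 per group), or 1.55-fold and 1.48-fold higher means. Macrophages and endothelial cells can express Klf4 too, and their part in the Klf4 value was not tested. Of 12 macrophage genes 7 and of 10 endothelial genes 5 had lower means with drug, and their summed levels overlapped between the groups (9401 to 12765 and 8435 to 11608 for macrophages, 959 to 1152 and 989 to 1162 for endothelium).

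**Figure D2:**
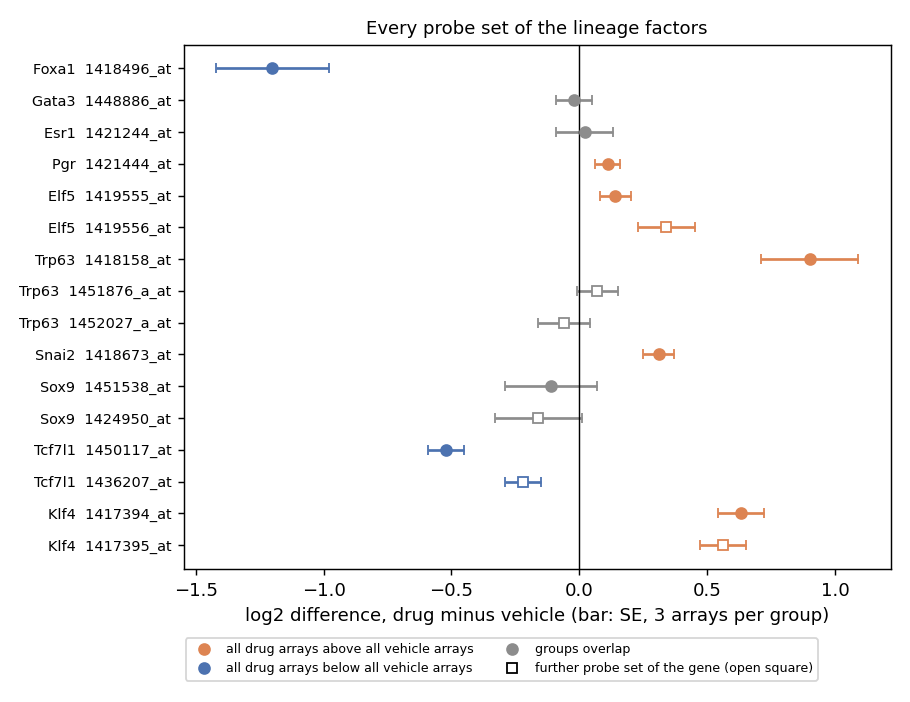
Log2 difference, drug minus vehicle (horizontal axis), with its SE for each of the 16 probe sets of the 10 factors, coloured by whether the groups of 3 arrays overlapped. Of the probe sets, 7 had all drug arrays above, 3 all drug arrays below and 6 overlapping groups, and only the probe sets of Trp63 differ in sign within a gene.

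The drug arrays did not deviate to the same extent. Drug replicate 2 was nearest to the mean of the 6 arrays for Foxa1 (-0.18), Klf4 (0.16), Tcf7l1 (-0.17) and Elf5 (0.03). Drug replicate 1 was farthest for Foxa1 (-0.96) and Trp63 (0.70). In vehicle, replicate 3 was the farthest from the mean for Foxa1 (0.90), Trp63 (-0.80), Klf4 (-0.43), Snai2 (-0.21) and Tcf7l1 (0.32). The vehicle and drug arrays with the most extreme Foxa1 and Trp63 values were thus the same, and they were also the muscle-rich arrays of their groups.

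**Figure D3:**
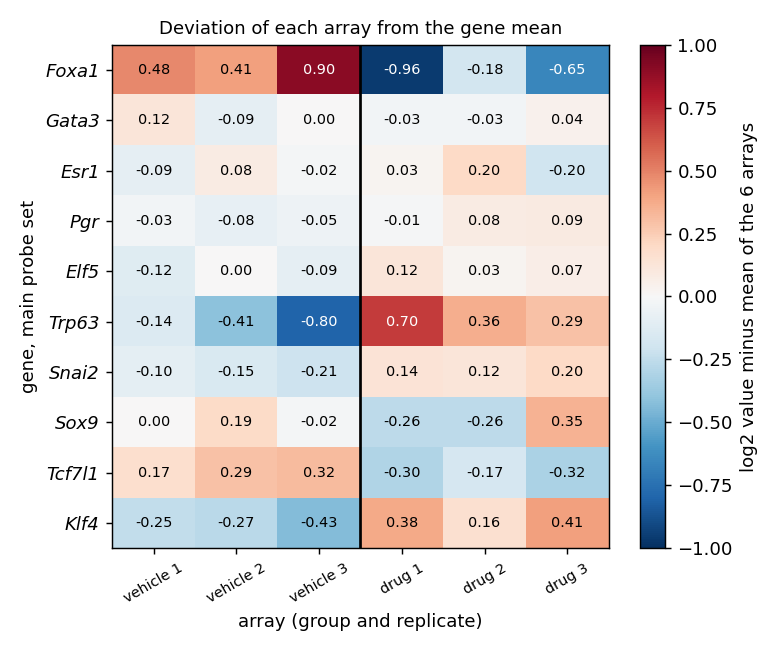
Deviation of each array from the mean of the 6 arrays (colour and number, log2) for the main probe set of each factor. Foxa1 and Tcf7l1 are positive on vehicle and negative on drug arrays, Trp63, Snai2 and Klf4 the reverse, and Sox9 is positive on drug replicate 3 and negative on the other drug arrays.

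A search over the 6 arrays among 717 genes with an SD of at least 0.3 gave the genes whose pattern was most like that of Foxa1, Trp63 and Klf4. With so few arrays in 2 separate groups, high correlations are common and carry no test. Foxa1 was nearest to H2-Aa and Cd74, which encode a class II MHC chain and its invariant chain (Pearson r of 0.996 and 0.992), and to Igfbp2 (0.979). H2-Aa read 8.88, 8.65 and 9.28 in vehicle and 6.32, 7.66 and 6.70 with drug, in the same order of arrays as Foxa1. Trp63 was nearest to Anxa8 (0.990), Krt14 (0.986) and Krt17 (0.985), the last pair being basal keratins. Klf4 was nearest to Perp (0.992), a desmosome-associated protein, Tmem82 (0.980) and Lypd3 (0.978).

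Genes of the basal layer and of p63 regulation mostly had higher means with drug. Of 23 measured genes 16 were higher, with a median of 0.21, while over all genes 47.9% were higher and 52.1% lower, with a median of -0.01. In 10 of the 23 (43.5%) every drug array exceeded every vehicle array, against 7.73% of all genes, and 10 had an unadjusted limma p under 0.05 and a higher mean, against 5.37%. The gene lists here and below were chosen with earlier results of these data known, so nothing is read from such shares. With limma 0 passed over all genes. Perp had means of 9.31 ± 0.14 in vehicle and 9.95 ± 0.17 with drug (SD, n = 3 each), a difference of 0.64 ± 0.11 (SE, n = 3 per group; limma adjusted p = 0.267). Krt14 and Krt17 differed by 0.60 ± 0.11 and 0.92 ± 0.18 (limma adjusted p = 0.273 and 0.29). The integrin chain Itga6, the cadherin Cdh3 and Egfr, named after their values were seen, differed by -0.03, -0.04 and -0.08, so the list was not uniform. Contractile genes of myoepithelial cells had 0 of 11 members with parted groups, against 17.1% of all genes, and a median of 0.03. Leaving out vehicle replicate 2 turned that median to -0.12, and leaving out drug replicate 3 to -0.05. It became 0.01 and 0.05 on omitting vehicle replicates 1 and 3, 0.00 and 0.09 on omitting drug replicates 1 and 2, and 0.16 once the muscle score was a covariate. The smallest unadjusted p among them belonged to Oxtr, the oxytocin receptor, at -0.08 ± 0.06, followed by Des (-0.88 ± 0.85), which skeletal muscle also expresses, and Lmod1 (0.11 ± 0.11).

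Squamous differentiation genes, a setting in which KLF4 acts, had 15 of 23 members higher and a median of 0.17. Every drug array exceeded every vehicle array in 10 genes and lay below them in 2, together 52.2% against 17.1% of all genes, and 0 passed with limma. The 2 below were Tgm1 (-0.27 ± 0.11) and Krt4 (-0.12 ± 0.07), among 8 genes with lower means. Of these 8, Ppl and Evpl, named after their values were seen, differed by -0.20 ± 0.10 and -0.13 ± 0.10. The list was thus not uniform. Serpinb5, the serpin maspin, differed by 0.47 ± 0.10, Lgals7, a galectin of stratified epithelium, by 0.42 ± 0.09 and Anxa8, an annexin, by 0.62 ± 0.14 (SE, n = 3 per group; limma adjusted p = 0.29, 0.303 and 0.338). The median was 0.11 without vehicle replicate 3 and 0.10 without both muscle-rich arrays. Of the markers of epidermis, named after their values were seen, Krt1, Krt2 and Flg had vehicle means of 3.13, 2.72 and 2.44. Their drug means were 3.12, 2.68 and 2.55, and all lay within or below the 5th to 95th percentile of olfactory receptor probe sets. Krt10 had vehicle and drug means of 7.99 and 7.82, and Lor of 4.92 and 4.96, above the highest olfactory receptor mean (4.61). The summed level of 12 skin and hair follicle genes was 465 to 498 in vehicle and 426 to 484 with drug.

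Luminal identity genes had means in both directions. Of 23 measured genes 13 had higher and 10 lower means, with a median of 0.03, and the groups were parted in 3 (13.0%, against 17.1% of all genes). Cldn8, a claudin, differed by -0.32 ± 0.07, Prom1, a marker of hormone-sensing luminal cells, by -0.55 ± 0.18 and Notch3, a receptor of luminal progenitors, by 0.19 ± 0.09 (SE, n = 3 per group; limma adjusted p = 0.338, 0.412 and 0.53). Cldn8 and Prom1 were parted, with all drug arrays below, and Notch3 overlapped. The other parted gene was Aldh1a3 (0.45 ± 0.22), with all drug arrays above, named after its values were seen. The sign of the luminal median turned when 1 array was left out, to -0.03 without vehicle replicate 1 and -0.04 without drug replicate 3. Genes of the estrogen and progesterone response had 8 of 19 members higher, a median of -0.03, and 4 with parted groups (21.1%, against 17.1% of all genes). That median was -0.06 without vehicle replicate 1, -0.07 without vehicle replicate 2, -0.05 without drug replicate 3, -0.01 without vehicle replicate 3 and 0.01, with the sign turned, without drug replicate 2. The coactivator Ncoa3 differed by -0.16 ± 0.05, Id4, an inhibitor of helix-loop-helix factors, by 0.45 ± 0.18 and Ccnd1, cyclin D1, by 0.31 ± 0.12 (limma adjusted p = 0.416, 0.47 and 0.475).

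Alveolar genes, the program that ELF5 drives, had 15 of 19 members higher, a median of 0.18, and 7 (36.8%, against 7.73% of all genes) with all drug arrays above all vehicle arrays. Muc15, a mucin of the milk fat globule, differed by 0.66 ± 0.13, Folr1, a folate receptor, by 0.53 ± 0.11 and Olah, a thioesterase of milk fat synthesis, by 1.25 ± 0.29 (SE, n = 3 per group; limma adjusted p = 0.29, 0.29 and 0.338). The 4 genes with lower means were Csn1s2a (-0.26 ± 0.74), Socs2 (-0.21 ± 0.12), Mfge8 (-0.08 ± 0.07) and Csn2 (-0.01 ± 0.05). The casein genes Csn1s1 and Csn1s2b, named like these after their values were seen, differed by 0.06 ± 0.05 and 0.03 ± 0.10. Csn2 had a vehicle mean of 13.89, near the highest value on any array, 14.14. The alveolar list was thus not uniform. Its median was 0.10 when all probe sets of a gene were averaged and 0.11 without vehicle replicate 1. A list of Wnt pathway and TCF target genes had 13 of 23 members higher, a median of 0.01, and 2 with parted groups (8.7%, against 17.1% of all genes). It holds ligands and other pathway genes as well as targets, so it is no measure of target genes alone. Cd44, an adhesion receptor, differed by 0.29 ± 0.07, and the ligands Wnt6 and Wnt10a by -0.16 ± 0.08 and 0.25 ± 0.13 (limma adjusted p = 0.321, 0.541 and 0.544). The parted genes were Cd44 and Wnt10a, and Wnt6 overlapped.

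Relatives of the members in the same gene families had 18 of 37 higher, a median of 0.00, and 9 (24.3%, against 17.1% of all genes) with parted groups. That median was 0.03 without vehicle replicate 2 and -0.03 without vehicle replicate 3. Snai3 read 6.62, 6.44 and 6.49 in vehicle and 5.90, 6.19 and 5.85 with drug, a difference of -0.54 ± 0.10 (SE, n = 3 per group; limma adjusted p = 0.29), opposite in sign to that of Snai2. Lef1, another TCF/LEF factor, differed by -0.26 ± 0.08 at values of 3.14 to 3.59, within the low reference, and Klf10 by -0.20 ± 0.06 (limma adjusted p = 0.397 and 0.409). Close paralogs, named after their values were seen, included Foxa2 (0.00 ± 0.11), Foxa3 (-0.01 ± 0.11), Tcf7l2 (0.02 ± 0.13), Trp73 (0.01 ± 0.15) and Klf5 (0.13 ± 0.06). Also among them were Klf2 (-0.05 ± 0.15), Snai1 (0.25 ± 0.13), Sox10 (0.13 ± 0.06) and Elf3 (-0.30 ± 0.14). Klf5 and Sox10 had all drug arrays above all vehicle arrays, and Elf3 had all below. Foxa2 and Foxa3 had vehicle means of 4.21 and 3.13, in the range of the olfactory receptor probe sets, so a loss of either could not have been seen.

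**Figure D4:**
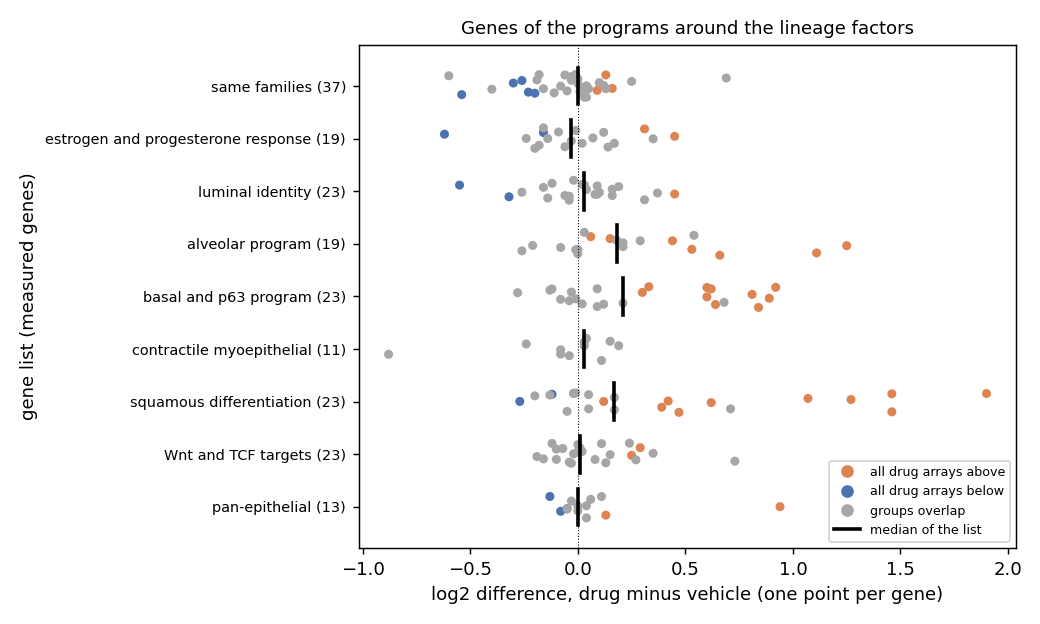
Log2 difference, drug minus vehicle (horizontal axis), of each measured gene in the lists around the lineage factors, coloured by overlap of the groups, with the median of each list (black line). The medians are 0.21 for the basal and p63 genes, 0.18 for alveolar, 0.17 for squamous, 0.03 for luminal and 0.00 for pan-epithelial genes.

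The pan-epithelial genes gave a measure of epithelial content. Of 13 measured genes 6 had higher and 7 lower means, with a median of 0.00, and their summed level was 18749 to 19609 in vehicle and 19331 to 20219 with drug. The groups were parted in 5 (38.5%, against 17.1% of all genes), with all drug arrays above in 2 and below in 3. Dsp, the desmosomal plakin, differed by 0.94 ± 0.16, Prss8 by -0.13 ± 0.06 and Pkp3 by 0.13 ± 0.07 (SE, n = 3 per group; limma adjusted p = 0.267, 0.516 and 0.571). Array medians were 6.70 to 6.73, and Pearson correlations between arrays, taken across probe sets that are not independent, were 0.993 to 0.997 within and 0.991 to 0.996 between groups. Adipocyte genes had 5 of 8 members higher, with summed levels of 1677 to 5227 in vehicle and 1926 to 4444 with drug.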

How the data were processed

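Biotin-labelled total RNA of 6 mammary tumor samples was measured on Affymetrix arrays, per the labels. The authors deposited log2 expression values for 22690 probe sets. Affymetrix Expression Console is named in the submitters' processing notes. For its version, summarisation and normalization nothing is stated in the sources used here. Values from 1.88 to 14.14 were taken as log2, and near-equal array medians mean that a change shared by most genes could be hidden. Detection calls were not used here.

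Gene names came from the platform annotation of 2016: 20380 had 1 symbol, 691 several, 1555 none, and 64 were controls. The groups were compared with limma 3.58.1 under R 4.3.3 (lmFit, eBayes, two-sided, Benjamini-Hochberg over 12393 genes, threshold 0.05). Further probe sets were fitted over all 20380. With 3 against 3 arrays the smallest two-sided p of an exact permutation test is 0.1. The members, gene lists and tests were chosen with earlier results of these data known. Named beside the members were the 3 genes per list with the smallest unadjusted p and the 3 most like Foxa1, Trp63 and Klf4. In 20 simulated runs with 200 of 12393 genes changed, 57% of changes of 0.5, 90.5% of 1 and 97.9% of 2 (log2) were called. These runs drew independent normal noise with each gene's residual SD. Variation that genes share on an array, such as muscle content, was left out. The shares therefore describe the simulation and do not show that changes of these sizes were absent from the tumors. Alternatives were other probe set summaries, normalizations, filters, variance settings, covariates and left-out arrays. Figures used matplotlib 3.10.9.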

Additional observations from a re-analysis of the deposited data

How the results depend on the processing

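The 10 member differences were recomputed under 157 combinations of gene and setting. For the 7 members whose groups did not overlap, the sign was kept in all of them, and 150 of the 157 values moved by less than the SD between replicates. Some of the 157 values could not move by construction, and the 150 include them. The level filter and the variance setting leave a difference unchanged. So does the mean of all probe sets for the 5 members with 1 probe set. With the mean of all probe sets the differences were 0.24 for Elf5, 0.30 for Trp63 and -0.37 for Tcf7l1. Relative to the pan-epithelial mean they were 0.04 for Pgr, 0.07 for Elf5 and 0.24 for Snai2, and 0.11, 0.14 and 0.31, as in the comparison itself, with Dsp left out of that mean. Without both muscle-rich arrays Trp63 differed by 0.60. With 1 array left out in turn the ranges were -1.41 to -1.02 for Foxa1, -0.07 to 0.04 for Gata3, -0.08 to 0.12 for Esr1, 0.09 to 0.14 for Pgr, 0.12 to 0.18 for Elf5, 0.72 to 1.05 for Trp63, 0.28 to 0.34 for Snai2, -0.31 to -0.01 for Sox9, -0.57 to -0.49 for Tcf7l1 and 0.57 to 0.71 for Klf4. The limma count of genes past the adjusted threshold was 0 and became 3 without drug replicate 2 (Gsta3, Serpinb2 and Slc2a9, with 0 members among them), so its range with 1 array left out was 0 to 3. It was 1275 by unadjusted p, and 2119 genes had groups that did not overlap. The causes were not tested. The muscle-related settings of the gene lists and the mean without Dsp were added after seeing the data. Esr1, Pgr and Snai2 were not fitted under the level filter, since their means lie below 5. No paired analysis was possible because the labels give no replicate numbers shared between the groups.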
